A study of Homo sapiens with 8 samples.

Results

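The 8 genes described here, ZFAND1, STRADA, SNX14, MON2, ASUN (also named INTS13), ZNF207, CLASP1 and ACACA, were picked in the study for an exon included more often after CHERP depletion, and are treated here as chosen by their whole-cell inclusion levels. They were 8 of 12067 genes with listed splicing events, and they held 120 of 89379 whole-cell events and 49 of 43559 cytoplasmic events. The RT-PCR panel of the study held other exon-inclusion genes, ARAP2, ATG16L1 and MAP4K2, which are not among these 8. The 8 were grouped under a label of small exons, so exon size may have had a part in their choice. U2OS cells, an osteosarcoma line, were transfected with 20 nM of an siRNA against CHERP (CHERP#2) or against EGFP as the control, and RNA was taken after 48 h from whole cells and from the cytoplasmic fraction. Each siRNA and fraction had 2 libraries, 8 in all, from poly(A)-selected RNA. Whole-cell values are therefore given as a description without a test, and tests were made in the cytoplasmic libraries only. The cytoplasmic fraction was the supernatant after lysis with NP-40. Neither the labels nor the methods state which libraries led to the choice of the genes, or whether both fractions came from the same dishes. The paper does state that its RT-PCR of alternatively spliced transcripts was meant to check their expression in the cytoplasm. If cytoplasmic values had a part in choosing the genes, the cytoplasmic tests below used those values and are not independent of the choice. A single siRNA sequence against CHERP was sequenced, so effects of that sequence on other targets and of CHERP loss cannot be told apart.

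An exon is spliced into an mRNA when the spliceosome recognizes the 3′ splice site before it and the 5′ splice site after it. The U2 snRNP, which binds the branch point upstream of the exon, commits the 3′ splice site, and CHERP is a nuclear protein associated with this particle. Very short exons leave little room for both sites to be recognized together and are often skipped. The genes belong to unrelated pathways. STRADA is a pseudokinase that activates the tumour suppressor kinase LKB1, and ACACA is the carboxylase that makes malonyl-CoA for fatty acid synthesis. MON2 is a scaffold protein of the Golgi and endosomes, SNX14 is a sorting nexin of the endoplasmic reticulum, and ZFAND1 is a zinc finger protein that helps to clear stress granules. ASUN is a subunit of the Integrator complex, which cleaves nascent RNA. ZNF207 binds the spindle checkpoint protein BUB3, and CLASP1 stabilizes microtubule plus ends.

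The small exon of each gene was the exon of 200 nt or less that showed the greatest increase in inclusion in whole cells, among those averaging 20 reads or more in a library. The inclusion level is the percent of transcripts that carry the exon, from inclusion and skipping reads each divided by the effective length of the form. Sequences are printed to show how short these exons are and what splice sites border them. They were read from GRCh37, 5′ to 3′ on the transcribed strand, with the exon in capitals between the last 20 bases of the upstream intron and the first 6 bases of the downstream intron.
STRADA, chr17:61803998-61804055, minus strand: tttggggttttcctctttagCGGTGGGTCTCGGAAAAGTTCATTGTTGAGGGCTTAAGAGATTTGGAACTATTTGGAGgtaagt
ACACA, chr17:35567381-35567404, minus strand: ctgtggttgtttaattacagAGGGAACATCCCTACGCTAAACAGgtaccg
MON2, chr12:62959794-62959811, plus strand: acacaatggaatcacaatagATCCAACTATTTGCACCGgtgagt
SNX14, chr6:86248556-86248582, minus strand: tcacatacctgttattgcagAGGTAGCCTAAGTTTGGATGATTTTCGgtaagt
ASUN, chr12:27067341-27067511, minus strand: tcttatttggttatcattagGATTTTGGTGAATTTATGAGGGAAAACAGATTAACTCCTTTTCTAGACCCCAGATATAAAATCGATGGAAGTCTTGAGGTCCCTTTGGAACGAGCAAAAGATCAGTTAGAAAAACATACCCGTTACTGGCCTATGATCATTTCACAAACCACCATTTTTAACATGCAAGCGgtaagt
ZNF207, chr17:30693684-30693776, plus strand: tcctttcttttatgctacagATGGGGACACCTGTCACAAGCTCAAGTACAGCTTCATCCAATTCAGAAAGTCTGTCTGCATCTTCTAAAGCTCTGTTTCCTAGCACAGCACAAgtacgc
ZNF207 second exon, chr17:30688487-30688534, plus strand: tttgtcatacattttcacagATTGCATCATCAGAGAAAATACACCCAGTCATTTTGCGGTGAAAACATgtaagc
CLASP1, chr2:122166600-122166623, minus strand: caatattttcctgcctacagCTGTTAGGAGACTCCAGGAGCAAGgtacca

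The exons were short. They measured 18 nt in MON2, 24 nt in ACACA and in CLASP1, 27 nt in SNX14, 40 nt in ZFAND1, 58 nt in STRADA, 93 nt in ZNF207 and 171 nt in ASUN. The label of small exons therefore held for most of them but not for ASUN, whose exon was longer than the median of 108 nt over the 34936 skipped exons of at most 200 nt with 20 reads. The median of the 8 was 33.5 nt. Exons of at most 30 nt were 4 of the 8, against 1.48% of those 34936, and exons of at most 60 nt were 6 of the 8, against 12.0%. Because the genes were grouped under that label, their choice may have fixed these shares in part. They describe the 8 and say nothing on the length of exons that respond to CHERP depletion. In GENCODE 44 on GRCh37 all 8 lay within the coding sequence of the canonical transcript, for CLASP1 by position. Some other annotated transcripts of STRADA, ZFAND1, MON2 and SNX14 held the exon outside their coding sequence. The canonical transcript carried the exon in every gene except CLASP1, where it skipped it. No stop codon stood within any of the 8 exons in the reading frame of the canonical transcript. The length was a multiple of 3 in 6 of the 8, so that inclusion adds whole codons, against 40.8% of the comparison exons. The exceptions were ZFAND1 and STRADA. In annotated transcripts that skip it, the place of the STRADA exon lay inside the coding sequence, where its inclusion shifts the frame. The place of the ZFAND1 exon lay outside the coding sequence of the transcripts that skip it, so no shift of frame is stated for it.

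All 8 exons were bordered by an AG before and a GT after, as were 98.5% of the comparison exons. The MON2 exon stood out by its 3′ splice site, in which pyrimidines filled 35% of the 20 bases that end 3 bases before the exon, which lay at percentile 0.117 of the comparison exons. A log-odds score of the whole 3′ splice site, built from the comparison exons, was -2.12 bits for MON2 and between 6.96 and 13.4 bits for the others, against a median of 9.63. The 3′ score was below that median in 7 of the 8, with ZNF207 as the exception. Most of these lay not far from it. ASUN, CLASP1 and STRADA were at percentiles 49.0, 47.0 and 45.4, ACACA, SNX14 and ZFAND1 at 34.9, 25.2 and 24.3, and only MON2 was extreme, at 0.51. The 5′ splice site score was low in ACACA (4.24 bits), CLASP1 (4.58 bits) and ZNF207 (4.95 bits), and high in STRADA (11.99 bits), against a median of 8.10. The introns next to the exons were poor in G and C. In the 200 bases downstream the GC content was 23.5% to 35.5%, below the median of 39% in all 8, and upstream it was 24.5% to 43.5%, below the median of 38% in all but ACACA. The GC content of the exons themselves, 38.6% to 54.2%, spanned the median of 45.6%. These features are descriptions of 8 chosen exons and were not tested.

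**Figure D1:**
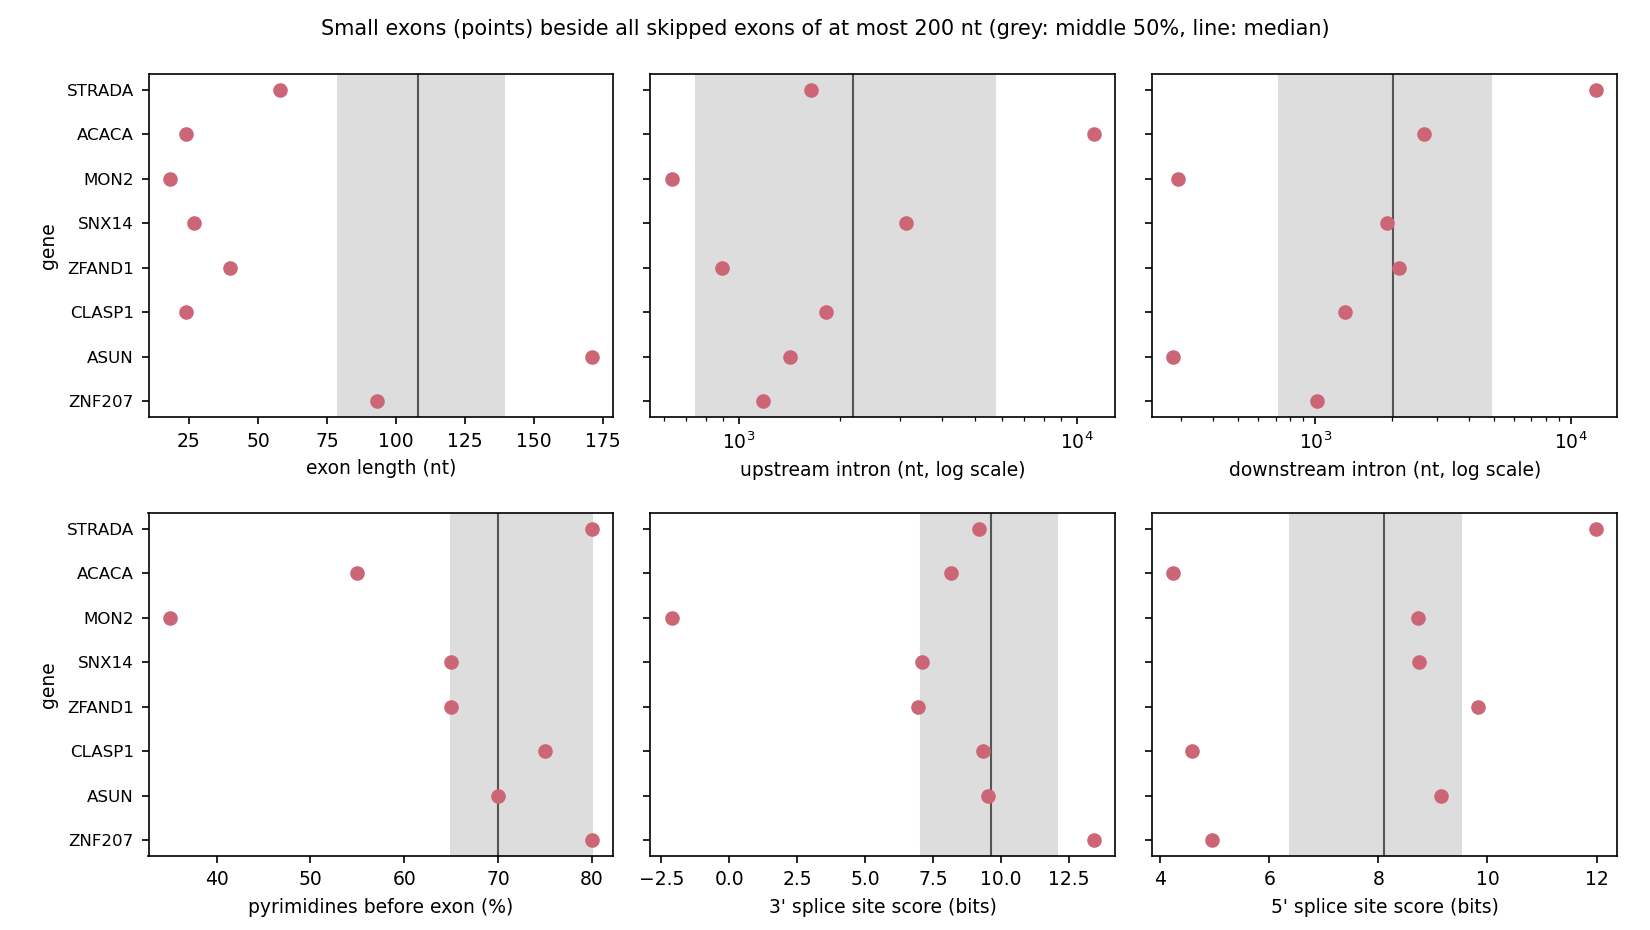
Length of the exon and of its introns, pyrimidine share and splice site scores of the small exon of each gene (points), beside the middle 50% (grey) and median (line) of the 34936 skipped exons of at most 200 nt. Intron lengths are on a log axis. MON2 lies far left for pyrimidines and for the 3′ splice site score, and 6 of the 8 exons are at most 60 nt long.

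CHERP itself was first looked at as a check of the labels. Levels are reads per kilobase of effective length, summed over the events of a gene and scaled between the libraries of a fraction. In whole cells CHERP stood at 551 and 336 in the EGFP libraries and at 12.3 and 61.5 in the CHERP libraries, from a mean of 48.25 reads. In the cytoplasm the levels were 392 and 276 against 36.8 and 49.3, from 14.75 reads. The groups did not overlap in either fraction, and the lower levels were in the libraries labelled CHERP. The libraries held between 29409956 and 35664568 reads on listed events in whole cells and between 5370756 and 6580099 in the cytoplasm, where one read may count for several events. Of the 7 mesenchymal genes looked for in U2OS, VIM was high in all 8 libraries and FN1 was present. CDH2 had 142.75 reads per library in whole cells only, RUNX2 had under 20, and SPARC, COL1A1 and COL1A2 had no events. Of the 7 epithelial, leukocyte, red cell and liver genes only CDH1 had events, with a level of 3.32 to 3.77 with EGFP siRNA and 58.7 to 72.1 with CHERP siRNA in whole cells from 9.75 reads. Its part in the results below was not tested.

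In whole cells, inclusion was higher after CHERP depletion in all 8 exons by construction, by 20.4 to 61.3 percentage points with a median of 45.6. Of all skipped exon events with at least 20 reads, 0.939% were higher by 20 points or more and 1.15% were lower by as much. In both fractions the 2 CHERP libraries lay above both EGFP libraries for each of the 8 exons. Over all skipped exon events this was so for 12.0% in whole cells, where the contrast also set which exon was taken, and for 10.1% in the cytoplasm.

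Cytoplasmic inclusion of all 8 exons was again higher with CHERP siRNA, by 23.7 to 64.8 points with a median of 44.02. Over all 31924 cytoplasmic skipped exon events, 0.254% changed and 0.147% rose at an FDR under 0.05 in a quasi-binomial model with Benjamini-Hochberg adjustment. Of the 8 exons 2 passed, those of SNX14 and ZNF207. An unadjusted p under 0.05 was reached by 7 of the 8, against 1.41% of all events that were higher at that p, and MON2 missed it with 4.75 reads per library. The mean reads per library ran from 4.75 for MON2 to 122.25 for ZNF207, compared with 56.75 to 438.25 in whole cells.

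**Figure D2:**
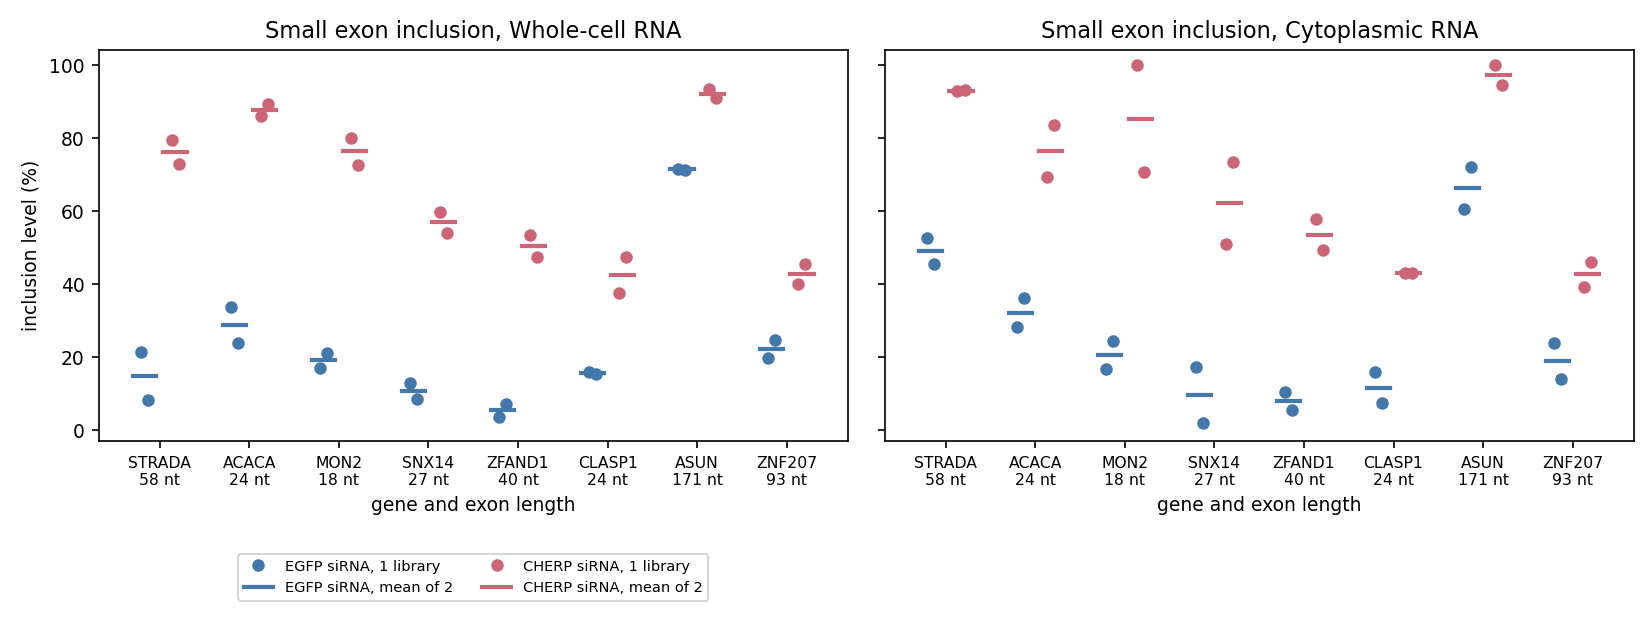
Inclusion level (%) of the small exon of each gene in whole-cell (left) and cytoplasmic (right) RNA. Points are single libraries and bars are means of 2 libraries, for EGFP and CHERP siRNA. The CHERP libraries lie above the EGFP libraries for every exon in both fractions.

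The 27-nt exon of SNX14 had the lowest cytoplasmic FDR of the 8 under the shared dispersion, but not under the larger of own and shared dispersion. Its inclusion was 12.97% and 8.39% in EGFP libraries and 59.8% and 54.1% in CHERP libraries in whole cells. The cytoplasmic levels were 17.3% and 1.93% against 51.0% and 73.5%. Most transcripts thus skipped the exon in control cells and most carried it after depletion, though cytoplasmic libraries of the same siRNA lay well apart. The cytoplasmic log2 odds rose by 4.47 ± 1.097 (SE, n = 2 against 2 libraries; FDR = 0.00173, quasi-binomial model). The call rested on the dispersion shared between events of similar read number, 1.83, while the exon's own spread between libraries gave 3.88. With the larger value the FDR was 0.207, above those of ACACA (0.123) and ZNF207 (0.138). It was 0.916 without EGFP library 2 and 0.316 without CHERP library 2, the libraries being named by their place in the file.

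ZNF207 carried 2 exons that rose. The 93-nt exon was included in whole cells at 19.7% and 24.8% under EGFP siRNA and at 39.9% and 45.4% under CHERP siRNA. In the cytoplasm the levels were 24.0% and 13.9% against 39.3% and 46.0%. The groups did not overlap, and the larger part of the transcripts still skipped the exon after depletion. The cytoplasmic log2 odds rose by 1.59 ± 0.39 (SE; FDR = 0.0160, quasi-binomial model). With the exon's own larger dispersion of 2.79 in place of 1.91, the FDR was 0.138, and it was 0.916 without EGFP library 2 and 0.157 without CHERP library 2. The other exon, 48 nt long and nearer the 5′ end, began from high inclusion. It was at 74.9% and 77.1% against 90.9% and 92.2% in whole cells, and at 70.4% and 65.7% against 89.4% and 87.2% in the cytoplasm. This was a rise of 20.2 points in the cytoplasm from 167.5 reads per library (log2 odds 1.83 ± 0.48 SE, FDR = 0.0310, quasi-binomial model), and it held with the larger of own and shared dispersion (FDR = 0.0357). Without any one of the 4 cytoplasmic libraries its FDR was between 0.0663 and 0.693. In a second whole-cell row of this exon, which starts from another upstream exon, inclusion was near complete in all 4 libraries and differed by -2.13 points.

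The 58-nt exon of STRADA had the largest whole-cell difference. Inclusion was 21.4% and 8.18% in EGFP libraries and 79.4% and 72.8% in CHERP libraries. In the cytoplasm it was 52.7% and 45.5% against 92.8% and 93.0%, with only 6 and 5 reads in the EGFP libraries, and the FDR was 0.762. A second whole-cell row of the same exon, with the upstream exon ending at its alternative 5′ splice site, gave a difference of 49.8 points. The same exon was also listed as mutually exclusive with a downstream exon of 103 nt. There the form with the small exon made up 6.78% and 1.46% of the pair in whole-cell EGFP libraries and 27.98% and 28.3% in CHERP libraries. In the cytoplasm it made up 10.1% and 13.4% against 42.0% and 46.3%, and this rise passed the test (log2 odds 2.45, FDR = 0.0436 in the quasi-binomial model, 35.25 reads per library). Of all mutually exclusive events, 0.863% passed in either direction. The FDR was 0.0705 with the larger of own and shared dispersion, 0.0773 when adjusted over all 5 event types, 0.0853 with a single dispersion, 0.416 with limma on the log2 odds, and between 0.567 and 0.905 without any one of the 4 libraries. Reads of the small exon's upstream junction enter both this event and the skipped exon row, so it is not a separate measurement. The upstream exon of STRADA also differed in its 5′ splice site in whole cells, its longer form being, among reads joined to the small exon, at 46.2% and 43.5% against 68.3% and 68.9%. In the cytoplasm that long form was at 100% and 100% against 73.8% and 93.8% (FDR = 0.835, quasi-binomial model). Those values rested on 3 and 3 reads in the EGFP libraries and 19 and 21 in the CHERP libraries, too few control reads to give a direction.

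In ACACA the transcripts with the 24-nt exon were the minority in control cells and the majority after depletion. Whole-cell inclusion was 33.7% and 23.8% for EGFP siRNA and 86.1% and 89.4% for CHERP siRNA. Cytoplasmic inclusion was 28.3% and 36.1% against 69.3% and 83.6%. The groups were well apart in both fractions, and the cytoplasmic log2 odds differed by 2.78 ± 0.84 (SE), but the FDR of 0.109 in the quasi-binomial model missed the threshold.

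The 18-nt exon of MON2 was at 17.1% and 21.2% in EGFP libraries and at 80.0% and 72.7% in CHERP libraries in whole cells. Its cytoplasmic inclusion was 16.7% and 24.3% against 100% and 70.6%, from 3 to 7 reads per library (FDR = 0.762), so that only the whole-cell libraries describe it with any depth. A whole-cell pair of mutually exclusive exons that begins at the junction which skips this exon was at 46.7% and 40.4% against 15.96% and 21.5%. Reads of that skipping junction enter this value too, so it is not a separate measurement. Another MON2 exon, of 64 nt, was 50 points higher in whole cells but had 4.25 reads per library and fell below the read limit.

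The 40-nt exon of ZFAND1, given by position only (chr8:82629484-82629523, GRCh37, minus strand), was almost absent from control cells. It was at 3.57% and 7.22% in EGFP libraries and at 53.4% and 47.5% in CHERP libraries in whole cells, and at 10.5% and 5.55% against 57.9% and 49.2% in the cytoplasm. The size was nearly the same in both fractions, 45.0 and 45.5 points. On 12 to 25 reads per library the cytoplasmic FDR was 0.203 (quasi-binomial model).

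The 24-nt exon of CLASP1 was at 15.9% and 15.3% in EGFP libraries and at 37.5% and 47.4% in CHERP libraries in whole cells. Cytoplasmic levels were 15.8% and 7.34% against 42.9% and 42.9%. As for ZNF207, the skipped form stayed the more abundant (cytoplasmic FDR = 0.762). In a second row of this exon, whose downstream exon starts 3 bases further on, the whole-cell difference was 2.28 points from 6 reads per library.

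The 171-nt exon of ASUN differed from the rest in its starting level. It was already at 71.5% and 71.4% with EGFP siRNA in whole cells and reached 93.3% and 91.0% with CHERP siRNA. In the cytoplasm it was at 60.5% and 72.0% against 100% and 94.5%. The libraries with CHERP siRNA held 0 and 1 skipping reads there, and the FDR was 0.591 (quasi-binomial model).

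**Figure D3:**
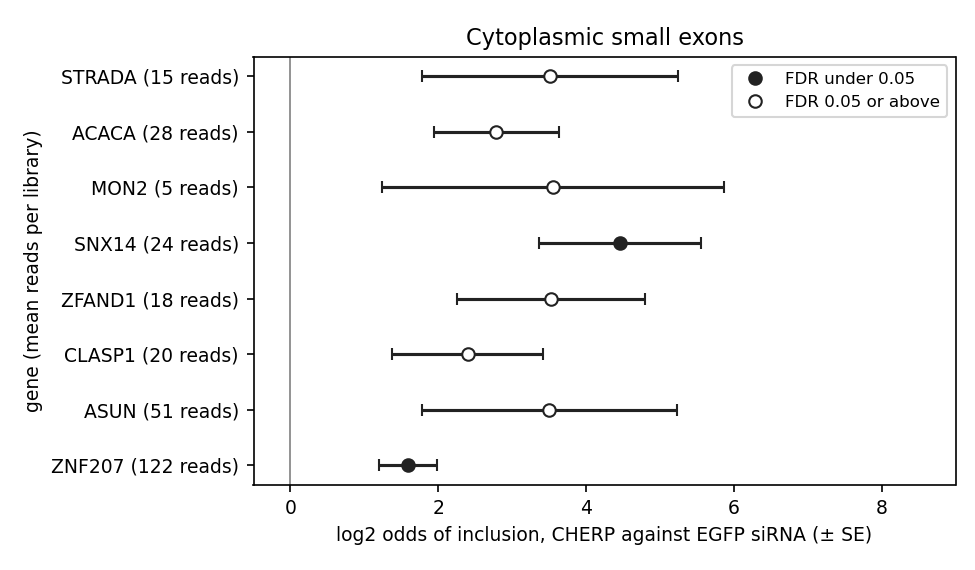
Log2 odds of inclusion with CHERP against EGFP siRNA in the cytoplasm for the small exon of each gene, with its SE from the quasi-binomial model and the mean reads per library beside the gene. SNX14 and ZNF207 (filled) passed an FDR of 0.05, and the widest error bar, of MON2, belongs to the exon with 4.75 reads.

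By size, the whole-cell differences ran from STRADA, ACACA and MON2 (57.2 to 61.3 points) through SNX14 and ZFAND1 (46.3 and 45.0) to CLASP1 (26.8), ASUN (20.7) and ZNF207 (20.4). The gap between neighbours in this order was larger than their combined SD only between MON2 and SNX14 and between ZFAND1 and CLASP1. Control inclusion ran from 5.40% in ZFAND1 to 28.7% in ACACA, with ASUN apart at 71.4%, and had a median of 17.4% over the 8. Inclusion after depletion was 42.4% to 92.1%. Control inclusion in the cytoplasm, 8.03% to 66.3%, lay within 10 points of the whole-cell level in each gene except STRADA. STRADA was at 49.1% ± 5.1 in the cytoplasm against 14.8% ± 9.3 in whole cells (SD, n = 2). Its cytoplasmic value came from only 6 and 5 reads. The effective length of its skipping form was 73 in the cytoplasm and 144 in whole cells. Whether inclusion differed between the fractions was not tested.

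Of all 49 cytoplasmic events of the 8 genes, 4 passed the test, all upward, against 0.413% over all events. They were the small exons of SNX14 and ZNF207, the STRADA pair and the second ZNF207 exon. The genes were picked for an exon that rises, which may have fixed this share and its direction in part. Of the 34 cytoplasmic events without a small exon or the second ZNF207 exon, 0 passed. By type, 3 of the 39 cytoplasmic skipped exon events passed and the 1 mutually exclusive event did. None of the 5 alternative 5′ and 4 alternative 3′ splice site events passed, where 0.617% and 0.372% of all such events did. No retained intron was listed for these genes in the cytoplasm, where 2.12% passed. Of the 120 whole-cell events, 11 with at least 20 reads were higher by 20 points or more, and each of these held a small exon, which the choice of those exons fixed in part. Another 2 were lower by as much. Over all whole-cell events 2.19% differed that far in either direction, and among the 91 events of these genes without a small exon or the second ZNF207 exon the 2 lower ones make a share near that background. The lower ones were the MON2 pair above and an alternative 3′ splice site of SNX14. This site lies 3 bases from its neighbour, and its longer form was at 88.5% and 86.1% against 77.6% and 56.9%, with 8.5 reads and an FDR of 0.920 in the cytoplasm (quasi-binomial model). The exon with the next largest increase in each gene was 2.10 to 15.6 points higher in whole cells, the last being the second ZNF207 exon.

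**Figure D4:**
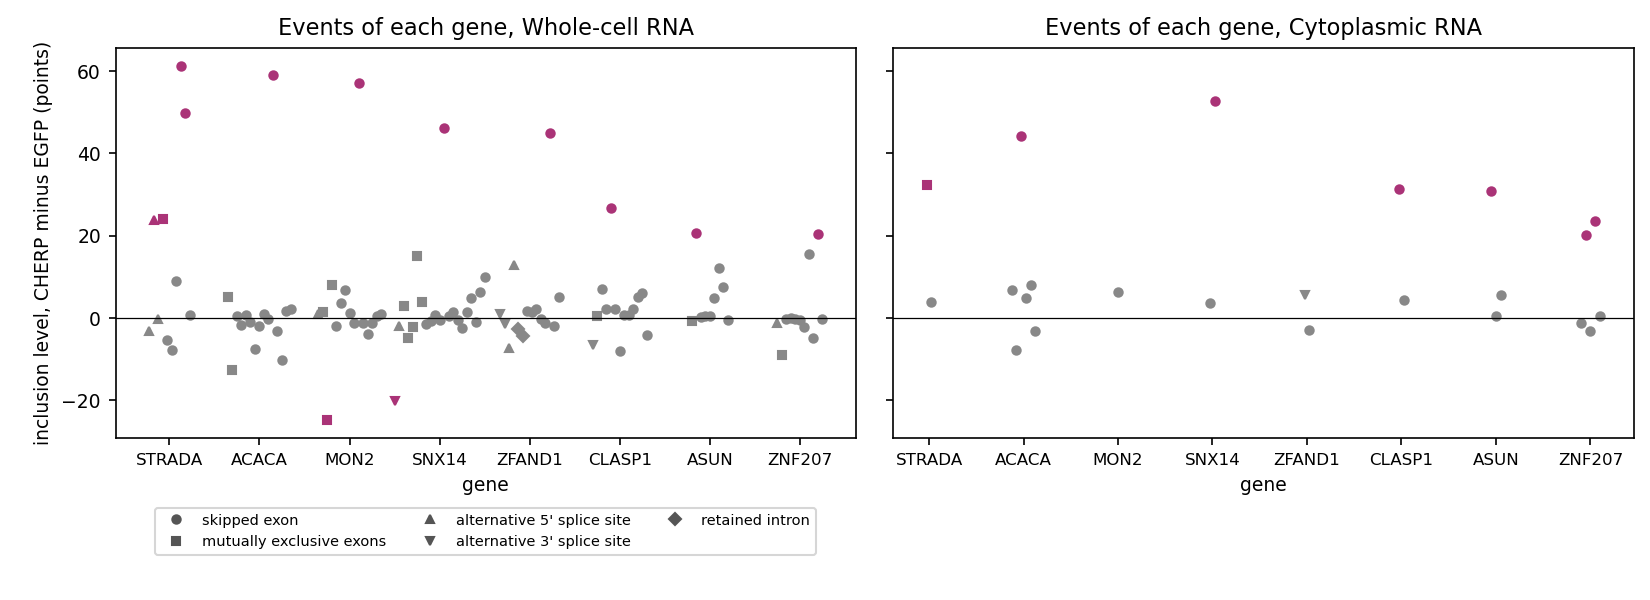
Difference of the inclusion level, CHERP minus EGFP siRNA in percentage points, for every event of the 8 genes with at least 20 reads per library, in whole-cell (left) and cytoplasmic (right) RNA. Marker shapes give the event type and coloured points differ by 20 points or more. In the cytoplasm all coloured points are events with a small exon or the second ZNF207 exon.

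Transcript levels of the same genes differed in both directions. In the cytoplasm 3 of the 8 passed an FDR of 0.05 (limma on log2 levels), against 39.0% of the 7293 genes tested, 19.1% upward and 19.9% downward. The median log2 difference of the 8 was -0.10, with -0.01 over all genes. In bulk RNA a change in the number of cells of a kind and in RNA per cell cannot be told apart.

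STRADA was higher in the cytoplasm. Its level was 623 and 768 in EGFP libraries and 1155 and 1260 in CHERP libraries, a log2 difference of 0.79 ± 0.15 (SE; FDR = 0.0175, limma). No other of the 8 genes rose in this test. Without the events of the small exon the log2 difference was 0.60 (FDR = 0.0538), and the FDR was 0.0629 without EGFP library 1 and 0.0559 without CHERP library 2. MON2 fell, from 369 and 319 to 156 and 223 (log2 difference -0.84 ± 0.20, FDR = 0.0325, limma). CLASP1 fell as well, from 1217 and 1189 to 909 and 781 (log2 difference -0.51 ± 0.12, FDR = 0.0344, limma). Neither call held without EGFP library 1 or EGFP library 2 or CHERP library 1, where FDR values were 0.0562 to 0.123, and CLASP1 was also above the threshold without CHERP library 2 (FDR = 0.127).

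The other 5 genes did not pass. ZFAND1 was at 1026 and 835 against 1257 and 1324 (FDR = 0.0561, limma). ZNF207 was at 5988 and 6133 against 7901 and 7065 (FDR = 0.0984), SNX14 at 867 and 1232 against 547 and 887 (FDR = 0.193), and ASUN at 825 and 914 against 718 and 788 (FDR = 0.231). ACACA hardly differed, at 1557 and 1181 against 1325 and 1392 (log2 difference 0.00 ± 0.17). In whole cells the levels of ZFAND1, STRADA, ZNF207 and ACACA were 1.31 to 1.35 times those in control cells, with no overlap between the groups. SNX14 was at 0.785 and CLASP1 at 0.878 of control without overlap, and MON2 and ASUN overlapped, at 1.02 and 1.07. Whether the fractions differed from each other was not tested.

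**Figure D5:**
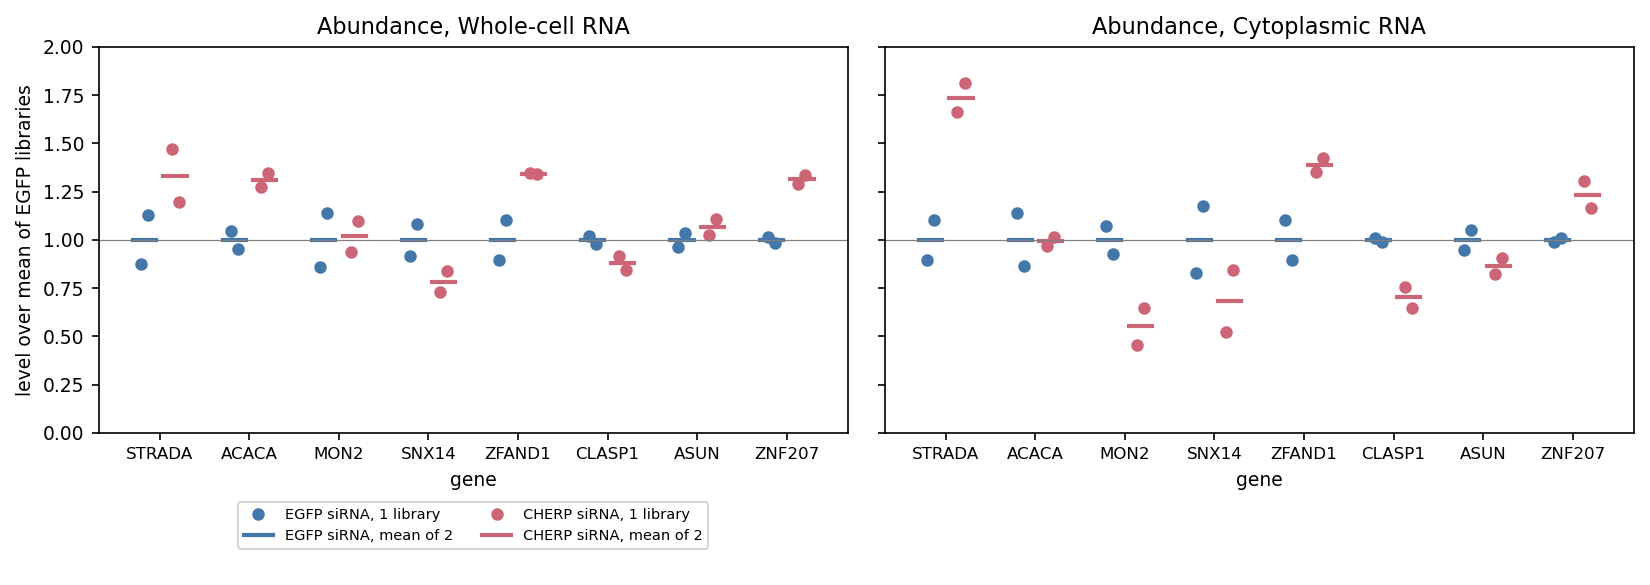
Level of each gene relative to the mean of its 2 EGFP libraries, in whole-cell (left) and cytoplasmic (right) RNA. Points are libraries and bars are means of 2. In the cytoplasm the CHERP libraries lie above the EGFP libraries for STRADA, ZFAND1 and ZNF207, and below them for MON2, CLASP1 and ASUN. Of these, STRADA, MON2 and CLASP1 passed the test.

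RNA levels of genes whose proteins work with those of the 8, and of paralogs of the 8, were looked at in the same way. Of 42 partners and paralogs 33 could be tested in the cytoplasm, and 11 rose and 6 fell (limma, FDR under 0.05), beside 39.0% of all genes, with a median log2 difference of 0.19. STK11, which encodes the LKB1 kinase that STRADA activates, rose from 610 and 444 to 1121 and 1307 (log2 difference 1.202 ± 0.19, FDR = 0.0129). CAB39, the scaffold of that complex, and STRADB, the paralog of STRADA, did not pass (FDR = 0.691 and 0.114, limma). Of 8 tested Integrator subunits, INTS4, INTS8 and INTS9 rose by 0.63, 0.96 and 0.68 on the log2 scale, while INTS2 fell by 1.62 (FDR = 0.00400, limma). The spindle checkpoint genes BUB1, BUB1B and MAD2L1 fell by 1.05, 1.096 and 0.84 on the log2 scale, whereas BUB3, the partner of ZNF207, missed the threshold (FDR = 0.0739). Among the microtubule genes, CENPE, a kinesin of the kinetochore, fell by 1.82, and CLASP2 and MAPRE1 rose by 0.80 and 0.50. In fatty acid synthesis, SCD, which desaturates fatty acids, rose by 1.41 and ACLY, which makes cytosolic acetyl-CoA, by 0.54. FASN, which builds palmitate from malonyl-CoA, had a log2 difference of 0.10 (FDR = 0.497). SNX3, which works with MON2 in endosomal sorting, fell by 0.49. Of the 6 tested ZFAND1 partners and paralogs, VCP, ZFAND2A and ZFAND3 rose by 0.46 to 0.49. ZFAND2B, ZFAND5 and ZFAND6 had log2 differences of -0.31, -0.10 and 0.35 and did not pass (FDR = 0.0746, 0.473 and 0.0692, limma). None of the SNX14 paralogs SNX13, SNX19 and SNX25 passed in limma (FDR 0.0695 to 0.689).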

How the data were processed

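RNA from 2 biological replicates per siRNA and fraction was sequenced from TruSeq stranded mRNA libraries. Per the submitters' notes and methods, the authors aligned reads to hg19 with STAR 2.5.2b, estimated expression with RSEM 1.2.25 on GENCODE 19, and called events with rMATS, whose version is not given in the sources used here. The deposited event tables hold inclusion and skipping reads per library, joined in a cell without replicate numbers, with effective lengths. The deposited cytoplasmic expression table holds the authors' means of 2 conditions whose siRNA its header does not name, and it lists 7 of the 8 genes, not STRADA. Its fold changes and probabilities, and the p-values, FDR and inclusion differences of the rMATS tables, are the authors' comparisons and were not used, nor were 20 columns of inclusion levels per library.

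In R 4.3.3, inclusion against skipping reads were fitted per event with a quasi-binomial model. Pearson dispersions were moderated by event type with squeezeVar of limma 3.58.1 (trend on mean reads, floor 1), and a group with 1 form only added no residual degree of freedom. Since the prior degrees of freedom were infinite, the spread of a single event had no weight. The dispersion was 1.21 to 3.60 for cytoplasmic skipped exons. P-values were adjusted by Benjamini-Hochberg over all events of a type. Log2 odds were computed with 0.5 added to each pooled count. Gene levels were reads over effective length summed over SE, A5SS and A3SS events, scaled by median ratios, and tested with limma on log2(value + 0.01 per base) in genes with at least 20 reads per library. Reads that serve several events are counted more than once. Sequences and splice site features came from GRCh37, which is hg19, and GENCODE 44 mapped to it. Fits were tested on simulated data. Other events were named where the cytoplasmic FDR was under 0.05 or the whole-cell difference was at least 20 points with 20 reads. The 8 genes, the partner list, the marker list and the tests were chosen with earlier results of these data known. With 2 libraries per group, p-values rest on the spread between these libraries. For inclusion this spread was shared over the events of a type, not taken from the single event, and for gene levels it was moderated over genes. Intervals and errors cover the model only.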

Additional observations from a re-analysis of the deposited data

How the results depend on the processing

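The number of the 8 cytoplasmic exons that passed depended on the alternative. The direction was the same under each that could be fitted, but most of them could not have changed it. Those with another dispersion, adjustment or read limit keep the same log2 odds. Since the CHERP libraries lay above the EGFP libraries for each exon, leaving out a library could not reverse the direction either. Of the 8 small exons, 2 passed as reported, 0 with limma on the log2 odds (7 at an unadjusted p under 0.05), 0 with the larger of own and moderated dispersion (7 at an unadjusted p under 0.05), 5 with a single dispersion for all skipped exon events, and 0 to 2 with each library left out in turn (5 to 6 unadjusted). Of all cytoplasmic events of the genes, 4 passed as reported, 0 with limma (10 unadjusted), 1 with the larger dispersion, the second ZNF207 exon, and 0 to 2 with each library left out (7 to 9 unadjusted). The limma test of log odds left the FDR of the 8 exons between 0.489 and 0.650. Over all skipped exon events, 81 passed as reported, 0 with limma (2625 unadjusted), 340 with a single dispersion and 29 to 56 with a library left out. Of the gene levels, 3 passed as reported, 0 without the read filter (4 unadjusted) and 0 to 1 with each library left out (3 unadjusted each time). With a pseudocount of 0.1, ZFAND1 passed as well (FDR = 0.0396). Scaling by the total placed the median of all genes at -0.10 on the log2 scale in the cytoplasm and gave a count of 3. Of the partners and paralogs, 17 passed as reported and 16 with scaling by the total. The median whole-cell exon difference was 45.6 points, and 42.8 to 48.5 with each library left out. The mean over both rows of the CLASP1 exon was 14.5 points in place of 26.8. The causes were not tested. No paired analysis was possible because the columns of the event tables carry no replicate numbers. The cytoplasmic exons had 4.75 to 122.25 reads per library, and with at least 10 or 20 reads required, 2 small exons passed.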

Other observations

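Other genes held exons with a like pattern. Among 12979 exons of other genes of at most 200 nt with 20 reads in both fractions, the 5 with the smallest mean distance to the median inclusion of the 8 small exons over the 8 libraries lay 5.27 to 10.8 points from it. No test is given, since all 8 libraries entered the distance that picked these exons. The nearest was an 18-nt exon of SENP6, a protease that removes SUMO chains, at chr6:76350403-76350420. It was included at 20.3% and 14.99% with EGFP siRNA and at 60.9% and 56.2% with CHERP siRNA in whole cells. In the cytoplasm it was at 18.4% and 11.8% against 61.6% and 62.6%. The second in the list was the same SENP6 exon with its 3′ splice site 3 bases upstream. A 39-nt exon of OSBPL9, a lipid transfer protein, at chr1:52221992-52222030, was at 23.8% and 24.3% against 64.4% and 68.3% in whole cells and at 18.8% and 40.4% against 91.5% and 82.8% in the cytoplasm. An exon of SLC25A36, a mitochondrial nucleotide carrier, and one of RHOT1, a mitochondrial GTPase, followed.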
